A study of Mus musculus with 2 samples.

Results

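Keratinocytes are the epithelial cells of epidermis and hair follicles, and a sort for CD45, the surface protein of leukocytes encoded by Ptprc, should leave them out. Some barcodes of the sorted libraries nevertheless carried keratinocyte transcripts, and these are described here. A barcode was taken as a keratinocyte when it had 500 or more unique molecular identifiers (UMIs, each standing for 1 captured RNA molecule), 250 or more genes and under 10% mitochondrial UMIs, together with 10 or more UMIs of Krt5, Krt14, Krt1 and Krt10 combined, 1 or more of Dsp and Sfn combined, and at most 2 of the collagen genes Col1a1 and Col1a2. This rule found 62 barcodes in the IL31RAKO library and 102 in the WT library, 164 of the 26553 barcodes that passed the depth and mitochondrial limits.

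The IL31RAKO library came from C57Bl/6 mice without Il31ra, the alpha chain of the receptor for the itch cytokine IL-31, and the WT library from C57Bl/6 mice with it. Shaved dorsal skin of both genotypes had been washed with 2% SDS and then given ointment with Dermatophagoides farinae house dust mite (Biostir), 2 times a week for 3 weeks, so no untreated skin was compared. Tissue of 4 mice per genotype was pooled, digested and sorted for live CD45+ cells, and each pool gave 1 droplet library read at the 3′ end. With 1 library per genotype there is no replicate and no test, and every difference below is between 2 libraries. Intervals in brackets or parentheses cover 95% counting error only. They include no difference between mice, digests or sorts, and for gene ratios they are too narrow where few barcodes hold most UMIs.

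Epidermal keratinocytes divide in a basal layer marked by Krt5, Krt14, the laminin and collagen receptors and the transcription factor gene Trp63. They then move up through the spinous layer, where Krt1 and Krt10 replace the basal keratins, to the granular and cornified layers, which make loricrin and filaggrin. The upper hair follicle has its own programme, marked in mice by Krt79. Keratinocytes of inflamed skin respond to IL-4, IL-13, IL-17 and cytokines of the IL-6 family, and can release TSLP, IL-33 and chemokines. The receptor for IL-31 pairs Il31ra with Osmr.

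The libraries held 71333292 UMIs (IL31RAKO) and 57000499 UMIs (WT), with 14619 and 11934 quality-passing barcodes at medians of 3181 and 2918.5 UMIs. Keratinocyte barcodes were deeper, with medians of 12052.5 UMIs and 2933.5 genes in IL31RAKO and 10602 UMIs and 2693.5 genes in WT. Their median mitochondrial share was 3.01% in IL31RAKO and 3.40% in WT. No keratinocyte barcode sequence occurred in both libraries, although 247 quality-passing ones did.

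The 4 keratins of the rule summed to 10 to 1765 UMIs per barcode in IL31RAKO (median 78) and 10 to 1735 in WT (median 73), values that the rule itself selected. Just inside the limit, at 10 to 12 keratin UMIs, lay 3 IL31RAKO and 6 WT barcodes, and just outside it, at 7 to 9, lay 4 and 3. The Dsp and Sfn condition left out 0 IL31RAKO and 2 WT barcodes, and the collagen condition left out none in either library. A further 7 IL31RAKO and 24 WT barcodes met the gene conditions but had 10% or more mitochondrial UMIs. At least 1 keratin UMI was found in 2624 IL31RAKO and 2715 WT quality-passing barcodes, but 3 or more in only 151 and 221, so that a single keratin UMI was common outside the keratinocyte barcodes.

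Keratinocyte barcodes made up a smaller share of the IL31RAKO library. They were 0.424% of its barcodes (Clopper-Pearson 0.325 to 0.543%), against 0.855% (0.697 to 1.04%) in WT, a ratio of 0.496 [0.356, 0.687]. Barcodes without a Ptprc UMI numbered 35 in IL31RAKO and 56 in WT (0.239% and 0.469%), a ratio of 0.510 [0.325, 0.792]. Those with a Ptprc UMI numbered 27 and 46 (0.185% and 0.386%), a ratio of 0.479 [0.286, 0.787]. The lower share was thus of like size in both Ptprc classes. Other cells that a CD45 sort should leave out did not share 1 direction. Endothelial barcodes, with 43 in IL31RAKO and 84 in WT, had a ratio of 0.418 [0.282, 0.611], and fibroblast barcodes, with 70 and 59, one of 0.969 [0.675, 1.39]. How far the sort or the digest set these shares was not tested, and fewer keratinocytes in the skin cannot be told apart from fewer passing the sort.

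**Figure D1:**
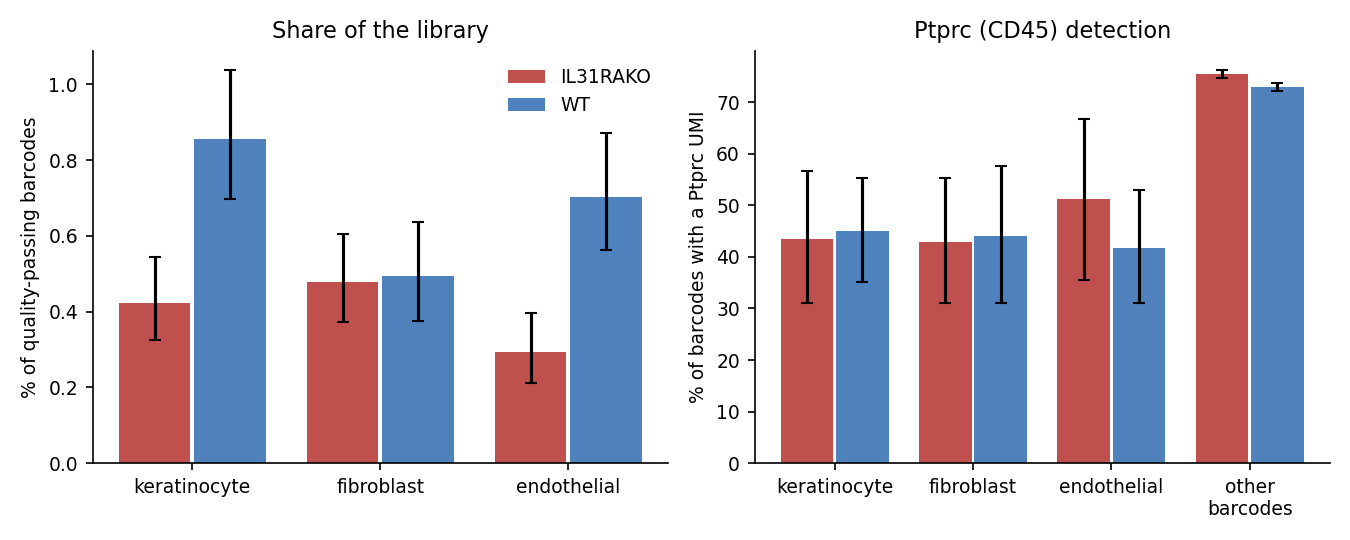
Left, keratinocyte, fibroblast and endothelial barcodes as a percentage of quality-passing barcodes in the IL31RAKO (red) and WT (blue) libraries. Right, the percentage of barcodes of each class with a Ptprc UMI. Bars are 1 library each and error bars are 95% Clopper-Pearson intervals. The keratinocyte bar stands at 0.424% in IL31RAKO and 0.855% in WT, while the Ptprc bars of the 3 non-leukocyte classes overlap in their intervals.

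Ptprc was found in 43.5% of keratinocyte barcodes in IL31RAKO (31.0 to 56.7%) and in 45.1% in WT (35.2 to 55.3%). These shares were like those of cells that should lack the gene: 42.9% and 44.1% of fibroblast barcodes and 51.2% and 41.7% of endothelial barcodes. Of the remaining barcodes, mostly leukocytes with median depths of only 3156.5 and 2878 UMIs, 75.5% (IL31RAKO) and 72.9% (WT) had a Ptprc UMI. At these unlike depths the keratinocyte share lay between those of the fibroblast and endothelial barcodes in IL31RAKO, and in WT it was just above both. Whether free RNA or doublets gave these UMIs was not tested. After each barcode was thinned to 1000 UMIs the share was 13.1% in IL31RAKO (8 of 61 barcodes, 1 left out as shallower) and 6.12% in WT (6 of 98, 4 left out). Fibroblast barcodes then stood at 8.57% and 14.3%, and endothelial barcodes at 9.30% and 15.5%. At this depth the keratinocyte share was above both in IL31RAKO and below both in WT, with few positive barcodes behind each share. The remaining barcodes were not thinned, so they have no value at this depth. Among the Ptprc-positive keratinocyte barcodes, 10 of 27 in IL31RAKO and 26 of 46 in WT had exactly 1 Ptprc UMI, and 7 and 10 had 3 or more. Their summed Ptprc level was 149 CPM (UMIs of a gene over all UMIs of the class, scaled to a common total) in IL31RAKO and 125 CPM in WT, against 543 and 559 CPM in the Ptprc-positive barcodes of the remainder.

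As a wider doublet check, the UMIs of 3 lists of general leukocyte, T cell and macrophage genes were added up in each barcode. They took 0.118 to 1.53% of UMIs in IL31RAKO Ptprc-zero barcodes (median 0.258%) and 0.118 to 1.35% in WT ones (median 0.263%). In Ptprc-positive barcodes they took 0.197 to 3.1% in IL31RAKO (median 0.477%) and 0.143 to 3.72% in WT (median 0.262%). The medians of the remaining barcodes were 2.67% and 2.26%, so most keratinocyte barcodes of either class had a far lower share of leukocyte transcripts. They were also deeper, with medians of 12052.5 UMIs (IL31RAKO) and 10602 UMIs (WT) against 3156.5 and 2878 in the remainder. A lower share is therefore not always a lower number. The share of a leukocyte in 1 droplet with a deeper keratinocyte would be diluted, so these shares cannot count doublets. At or above the level that 95% of the remainder reaches (1.37% in IL31RAKO, 1.22% in WT) lay 2 of 35 Ptprc-zero and 4 of 27 Ptprc-positive barcodes in IL31RAKO, and 1 of 56 and 7 of 46 in WT. The doublet caller Scrublet scored all quality-passing barcodes, and the highest scores were marked at a preset share of 0.8% per 1000 barcodes. Those marked included 6 of 35 Ptprc-zero and 13 of 27 Ptprc-positive barcodes in IL31RAKO (17.1% and 48.1%). In WT they included 6 of 56 and 9 of 46 (10.7% and 19.6%). Over all quality-passing barcodes the preset share was 11.7% in IL31RAKO and 9.54% in WT, which is a setting and not a count of doublets. The marked share of Ptprc-positive keratinocyte barcodes was above that of the library in both. The part of doublets in the results on this class was not tested.

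**Figure D2:**
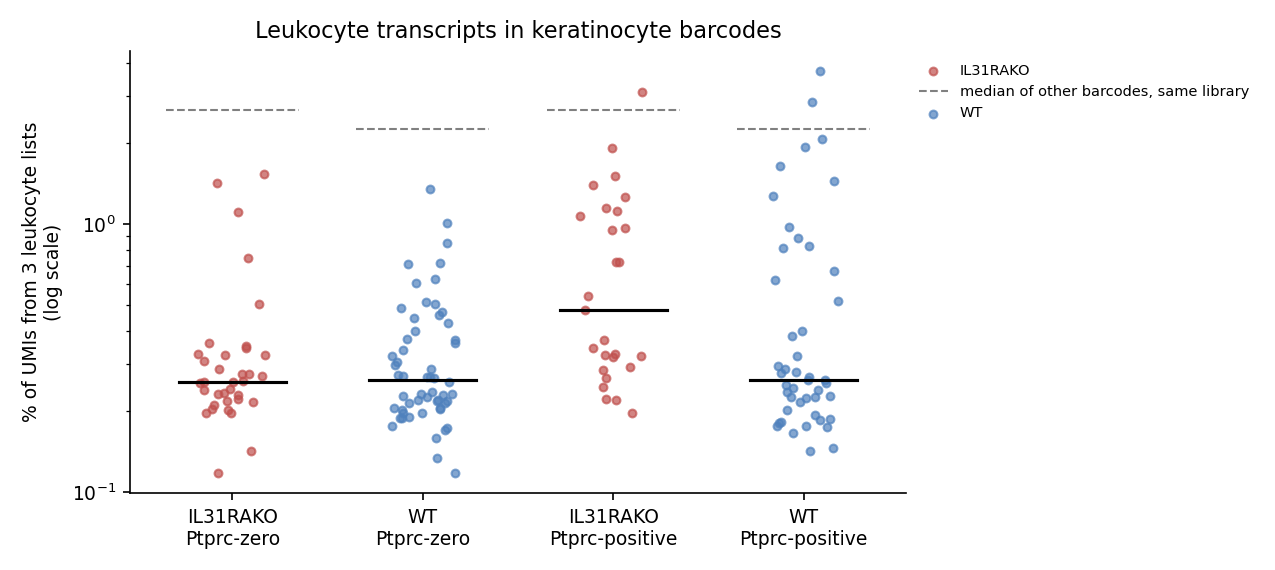
Percentage of UMIs from the general leukocyte, T cell and macrophage lists (log scale) in each keratinocyte barcode, by library and Ptprc class. Points are barcodes, black lines their medians, and dashed grey lines the median of the remaining barcodes of the same library. Medians were 0.258% (IL31RAKO) and 0.263% (WT) in Ptprc-zero barcodes and 0.477% (IL31RAKO) and 0.262% (WT) in Ptprc-positive ones, below the dashed lines at 2.67% and 2.26%.

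The Ptprc-positive IL31RAKO barcodes thus had a higher median share of leukocyte transcripts than the WT ones. The MHC class II list, which encodes the antigen-presenting molecules of dendritic cells and macrophages, took 0.545% of UMIs in IL31RAKO and 0.513% in WT Ptprc-zero barcodes, but 1.41% and 0.716% in Ptprc-positive ones, beside 5.28% and 4.30% in the remainder. Its medians per barcode were closer, at 0.434% in IL31RAKO and 0.393% in WT Ptprc-positive barcodes and 0.442% and 0.365% in Ptprc-zero ones. Single Ptprc-positive barcodes reached 10.1% in IL31RAKO and 13.55% in WT, so the summed shares rested on few barcodes. By summed UMIs, all 6 measured members of this list were past 1.5-fold higher in IL31RAKO in the Ptprc-positive class, and 0 of 6 in the Ptprc-zero class. Among all genes with 10 or more UMIs, 22.6% of 7745 were past 1.5-fold higher and 13.9% past 1.5-fold lower in the Ptprc-positive class, and 15.7% of 7152 higher and 19.6% lower in the Ptprc-zero class. Of the macrophage list, 13 of 15 members were past 1.5-fold higher in the Ptprc-positive class and 6 of 15 in the Ptprc-zero class. Gene levels are therefore given first for Ptprc-zero barcodes, with the Ptprc-positive value beside them. Markers of fibroblasts (0.00564% of UMIs in IL31RAKO, 0.00562% in WT) and endothelium (0.00123% and 0.00318%) were close to 0 in the Ptprc-zero barcodes, and the 6 markers of Merkel cells, touch receptors of the epidermis that share its epithelial origin, had 0 UMIs.

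Among the 4 keratins that chose the barcodes, the basal pair was found more often than the suprabasal pair, which is a description and not a finding. Krt14, the basal type I keratin (ENSMUSG00000045545, mm10 chromosome 11, 100203162 to 100207548), was detected in 62 of 62 IL31RAKO and 101 of 102 WT barcodes. Its partner Krt5 (ENSMUSG00000061527, chromosome 15, 101707070 to 101712898) was detected in 50 and 89. The suprabasal keratins were rarer. Krt1 was found in 11 of 62 IL31RAKO and 21 of 102 WT barcodes and Krt10 in 26 and 46. Among Ptprc-zero barcodes, Krt1 and Krt10 made up 50% or more of the 4-keratin sum in 3 of 35 in IL31RAKO and 2 of 56 in WT. Loricrin (Lor), the main protein of the cornified envelope, had 1 UMI over all IL31RAKO keratinocyte barcodes and 0 over the WT ones, and filaggrin (Flg) had 2 and 0. In the Ptprc-zero class only 5 of the 22 granular and cornified genes reached 10 UMIs.

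Krt15, a keratin of basal and follicle stem cells, was found in 36 IL31RAKO and 77 WT barcodes. Krt79 (ENSMUSG00000061397, chromosome 15, 101929332 to 101940324) was found in 39 (62.9%) and 67 (65.7%). Its median level per barcode was 173 CPM in IL31RAKO and 250 CPM in WT, with highest barcodes at 25450 and 16250 CPM. Krt17, a keratin of follicles and of wounded epidermis, was found in 49 and 85 barcodes, and the beta-defensin gene Defb6 in 35 and 74. Both libraries thus held barcodes with and without each of these genes. Krt14, Krt16 and Krt17, and likewise Krt6a and Krt6b, are related in sequence, and how reads common to them were counted was not resolved here.

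The promoters of 3 keratins that mark different members are shown, for the basal (Krt5), suprabasal (Krt10) and upper follicle (Krt79) types. Each is the 120 bases before the RefSeq gene start on build GRCm38.p6, all 3 on the minus strand, with matches to ATAAA on either strand in capitals (TTTAT is the same motif on the opposite strand).
Krt5, chr15:101712906-101713025: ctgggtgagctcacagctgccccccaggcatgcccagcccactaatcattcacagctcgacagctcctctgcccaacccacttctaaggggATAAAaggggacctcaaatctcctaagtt
Krt10, chr11:99389365-99389484: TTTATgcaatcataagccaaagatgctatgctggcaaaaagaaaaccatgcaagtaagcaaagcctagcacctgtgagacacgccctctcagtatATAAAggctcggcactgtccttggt
Krt79, chr15:101940325-101940444: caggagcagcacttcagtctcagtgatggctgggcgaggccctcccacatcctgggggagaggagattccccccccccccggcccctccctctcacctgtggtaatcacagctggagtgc
Krt5 had 1 match, Krt10 had 2 and Krt79 had 0, and 20.2% of the 32851 promoters in the same table hold one. No promoter sequence is shown for Krt1 and Krt15.

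**Figure D3:**
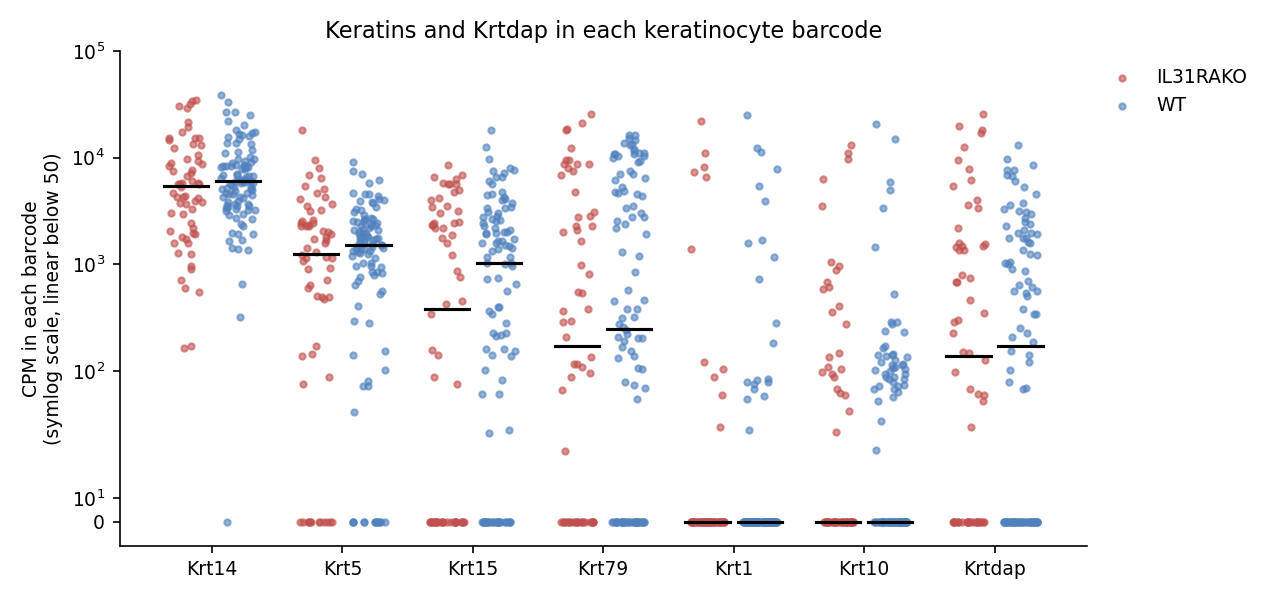
CPM of 6 keratins and Krtdap in each of the 62 IL31RAKO (red, left) and 102 WT (blue, right) keratinocyte barcodes, on a symmetric log axis that is linear below 50 CPM. Points are barcodes and black lines medians over barcodes. Krt14 was found in nearly every barcode, whereas Krt1 and Krt10 have medians of 0 in both libraries and Krt79 spans 0 to 25450 CPM in IL31RAKO and 0 to 16250 CPM in WT.

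The genes that set the Ptprc-zero barcodes apart from the remaining barcodes in both libraries were epithelial. By the smaller of the library ratios the 30 leading genes included the S100 genes S100a14 and S100a16, the skin-homing chemokine gene Ccl27a, Lgals7 (galectin-7), the desmosome genes Perp and Dsp, the secreted products Dmkn and Krtdap, and Defb6, Fxyd3, Trim29, Ly6d, Sdc1, Krt15, Krt17, Krt79, Krt6a and Cst6. Lgals7, for example, was at 13080 CPM in IL31RAKO and 11530 CPM in WT Ptprc-zero barcodes, against 43.7 and 80.4 CPM in the remainder. S100a14 was at 961 and 764 CPM, against 2.94 and 4.53 CPM. The barcodes were chosen by keratin genes, so these values describe the choice and no test was made.

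Within the keratinocyte barcodes, Krt79 and Krt15 divided most barcodes at a level of 1000 CPM within the barcode, a limit chosen after the values were seen. In IL31RAKO 16 barcodes (25.8%) passed it for Krt79 only, 21 (33.9%) for Krt15 only, 6 (9.68%) for both and 19 (30.6%) for neither. In WT the numbers were 29 (28.4%), 40 (39.2%), 12 (11.8%) and 21 (20.6%). These are ranges of a continuous level, not cell types. Between 800 and 1200 CPM lay 2 IL31RAKO barcodes and 1 WT barcode for Krt79. For Krt15, 1 IL31RAKO barcode lay between those levels, and in WT 1 lay just below 1000 CPM and 5 just above it.

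Genes not used to form these ranges followed them in both libraries. Defb6 was at 8983 CPM (IL31RAKO) and 9856 CPM (WT) in the Krt79-only barcodes and at 443 and 703 CPM in the Krt15-only ones. Krt17 was at 9812 and 6519 CPM in the Krt79-only barcodes and at 3109 and 1523 CPM in the Krt15-only ones. The surface protein gene Ly6d stood at 3318 and 3167 CPM against 577 and 544 CPM, and the lipoxygenase gene Alox12e at 1093 and 1980 CPM against 387 and 396 CPM. Krt5, by contrast, was at 417 and 529 CPM in Krt79-only barcodes and at 2669 and 2482 CPM in Krt15-only ones.

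Some genes of the basal and follicle lists, named here after their values were seen, were higher in Krt15-only than in Krt79-only barcodes. The hemidesmosome gene Col17a1 was at 170 CPM in IL31RAKO and 199 CPM in WT there, against 14.2 and 38.5 CPM in Krt79-only barcodes. The BMP and WNT inhibitor gene Sostdc1 was at 636 and 593 CPM against 89.9 and 260 CPM, and Trp63 at 194 and 223 CPM against 61.5 and 44.9 CPM. Follistatin (Fst), an activin inhibitor, was at 276 and 502 CPM against 18.9 and 25.7 CPM, and the matrix gene Postn at 574 and 464 CPM against 4.73 and 103 CPM. Sox9, a transcription factor gene of follicle stem cells, did not share this order in IL31RAKO and was nearly even in WT, at 68.9 CPM in IL31RAKO and 171 CPM in WT Krt15-only barcodes, against 194 and 167 CPM in Krt79-only ones.

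By summed UMIs, barcodes with neither gene held most of the suprabasal keratin. Krt1 was at 3964 CPM in IL31RAKO and 2830 CPM in WT there, against 80.5 and 48.1 CPM in the Krt79-only and 0 and 35.2 CPM in the Krt15-only barcodes. Only 9 of the 19 IL31RAKO and 10 of the 21 WT barcodes with neither gene had a Krt1 UMI. Of the Krt1 UMIs, 450 of 973 and 305 of 1063 lay in 1 barcode. Krt10 was at 1699 and 2668 CPM in the barcodes with neither gene. The calmodulin-like gene Calm4 of the spinous layer was at 1764 and 2245 CPM there, found in 8 IL31RAKO and 8 WT barcodes. The barcodes with neither gene also had the highest Krt14, at 16840 and 12520 CPM. Krt10 differed between the libraries in the Krt79-only barcodes, at 899 CPM in IL31RAKO and 61.0 CPM in WT. However, 151 of its 190 UMIs there in IL31RAKO were in 1 barcode, as were 6 of 19 in WT, and without these barcodes the levels were 198 and 42.3 CPM.

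**Figure D4:**
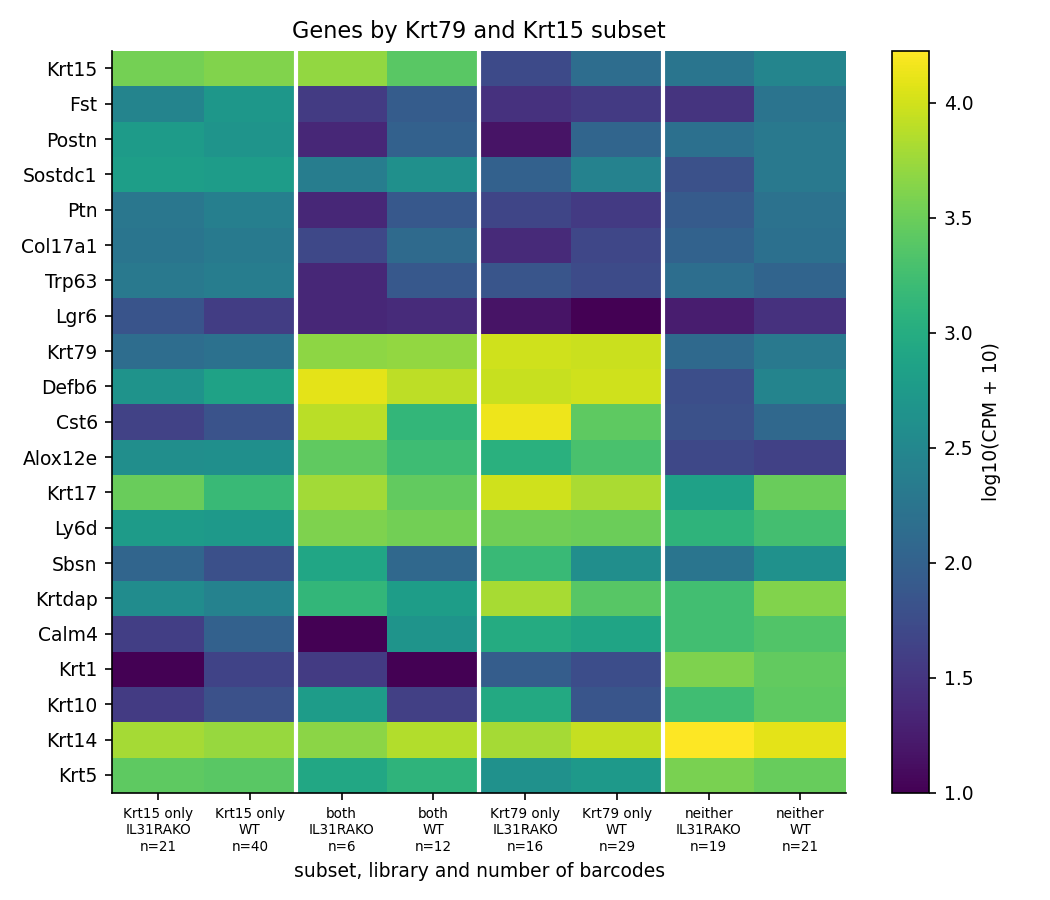
Level of 21 genes, as log10 of CPM plus 10, in keratinocyte barcodes grouped by Krt79 and Krt15 at 1000 CPM, with IL31RAKO left of WT in each pair of columns and the number of barcodes under each column. Krt15-associated genes are brightest in the Krt15-only columns, Defb6 and Cst6 in the columns with Krt79, and Krt1, Krt10 and Calm4 in the neither columns, in both libraries. Krt79 and Krt15 themselves were used to form the columns.

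The targeted gene could not be checked in these cells. Il31ra had 2 UMIs in the IL31RAKO keratinocyte barcodes and 0 in the WT ones, and a tag at the 3′ end may lie outside the deleted part, so these counts check neither the deletion nor the label. Its partner Osmr had 14 UMIs in 13 IL31RAKO barcodes and 21 UMIs in 19 WT barcodes. Il6st, the gp130 chain, had 15 and 29 UMIs. Of the 7 genes of this receptor pathway with 10 or more UMIs in the Ptprc-zero class, 0 were past 1.5-fold higher in IL31RAKO and 2 past 1.5-fold lower. Of all genes in that class 15.7% were higher and 19.6% lower, and so few pathway genes cannot be told apart from these shares. One of the 2 lower pathway genes was Socs3, the feedback inhibitor of IL-6-family signalling, with 50 UMIs in IL31RAKO and 141 in WT (0.464 [0.329, 0.645]), but its ratio was 1.202 [0.862, 1.67] in Ptprc-positive barcodes. Receptors for IL-4, IL-13 and IL-17 gave no detectable difference at this depth: Il4ra had 8 and 15 UMIs (0.698 [0.256, 1.75]), Il13ra1 20 and 24 (1.09 [0.572, 2.06]) and Il17rc 25 and 22 (1.49 [0.805, 2.77]).

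The epithelial cytokine genes were rare. Tslp, which encodes an alarmin that drives type 2 inflammation, had 1 UMI in IL31RAKO and 4 in WT keratinocyte barcodes. Il33, another alarmin, had 24 UMIs in 5 IL31RAKO and 9 in 5 WT barcodes, with up to 12 UMIs in 1 IL31RAKO barcode, and Il1a had 2 and 2. Ccl27a was abundant, with 899 UMIs in IL31RAKO and 1283 in WT Ptprc-zero barcodes (0.917 [0.841, 1.000]) and a lower ratio of 0.461 [0.415, 0.511] in Ptprc-positive ones. Its near-identical copy Ccl27b had 13 and 50 UMIs (0.340 [0.170, 0.636]), with 0.347 [0.149, 0.721] in the Ptprc-positive class, although reads of the copies can be split between them. The neutrophil chemokine gene Cxcl1 had 67 and 45 UMIs (1.95 [1.32, 2.91]), of which 44 and 19 came from 1 barcode. Of the 13 cytokine and chemokine genes measured in Ptprc-zero barcodes, 7 were past 1.5-fold higher and 2 past 1.5-fold lower, beside 15.7% and 19.6% of all genes. Cxcl2 was among the higher (1.82 [1.34, 2.47]), but at 262 CPM in IL31RAKO and 144 CPM in WT it lay below free RNA, taken from barcodes of 10 to 50 UMIs (779 and 1075 CPM).

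Spinous genes were higher in the IL31RAKO Ptprc-zero barcodes. Of 15 measured, 11 were past 1.5-fold higher and 0 past 1.5-fold lower, beside 15.7% and 19.6% of all genes. Their median log2 ratio was 1.09, beside -0.02 over all genes. Krtdap, a secreted peptide of differentiating keratinocytes, had 1238 UMIs in 23 of 35 IL31RAKO barcodes and 678 UMIs in 28 of 56 WT barcodes, a ratio of 2.39 [2.17, 2.63] (log2 1.26, and 0.35 at the 5% mitochondrial limit). In Ptprc-positive barcodes of the same libraries it had 753 and 1823 UMIs, a ratio of 0.685 [0.628, 0.746]. Dmkn, a secreted epidermal protein, had 804 and 513 UMIs in the Ptprc-zero class (2.05 [1.83, 2.30]) and a ratio of 0.881 [0.791, 0.979] in the other. Calm4 had ratios of 2.12 [1.83, 2.46] and 0.313 [0.264, 0.370]. The direction was thus opposite in the Ptprc classes for these 3 genes. In the Ptprc-positive class 4 of 14 measured spinous genes were past 1.5-fold higher and 2 past 1.5-fold lower, beside 22.6% and 13.9% of all genes (median log2 -0.20, beside 0.09 over all genes).

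The summed level rested on a minority of barcodes. The spinous list took 2.69% of summed UMIs in IL31RAKO and 1.78% in WT Ptprc-zero barcodes, but its median per barcode was 1.502% in IL31RAKO and 1.507% in WT, and its highest barcodes were at 10.8% and 6.64%. Krt1 had 903 UMIs in 4 IL31RAKO barcodes, with 450 in 1 of them, and 322 UMIs in 11 WT barcodes, with 271 in 1. Its ratio was 3.67 [3.23, 4.18] in Ptprc-zero and 0.191 [0.152, 0.239] in Ptprc-positive barcodes. Krt10 likewise had ratios of 3.18 [2.62, 3.87] and 0.548 [0.479, 0.626]. With barcodes free of any collagen UMI the Ptprc-zero log2 ratios were -2.86 for Krt1 and -0.04 for Krt10, in place of 1.88 and 1.67. Both keratins are part of the rule, so these values are a description of the members.

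Lists of later differentiation and of activated epidermis were counted in the same way. Of all genes, 15.7% were past 1.5-fold higher and 19.6% lower in Ptprc-zero barcodes, and 22.6% and 13.9% in Ptprc-positive ones. Of the 5 granular and cornified genes measured, 5 were past 1.5-fold higher in IL31RAKO Ptprc-zero barcodes, against 2 higher and 3 lower of 5 in Ptprc-positive ones. Of the activated list, which holds the wound keratins and small proline-rich proteins, 8 of 11 were past 1.5-fold higher and 1 lower in the first class, and 1 of 10 higher and 6 lower in the second. With every barcode included, the summed levels did not turn round between the classes as the counts of genes did. The granular list was at 424 CPM in IL31RAKO and 63.6 CPM in WT Ptprc-zero barcodes, and 207 and 101 CPM in Ptprc-positive ones. Single barcodes carried much of it: 1 held 114 of the 173 UMIs in IL31RAKO Ptprc-zero barcodes and 1 held 11 of 34 in WT, and without these the list was at 149 and 45.2 CPM. In Ptprc-positive barcodes 55 of 89 UMIs in IL31RAKO and 22 of 72 in WT were in 1 barcode, and without these the list was at 81.8 CPM in IL31RAKO and 78.9 CPM in WT. The activated list was at 7970 and 4644 CPM in Ptprc-zero barcodes (6967 and 3993 CPM without the top barcode of each library). It was at 6446 and 6158 CPM in Ptprc-positive ones, but 4350 CPM in IL31RAKO and 5378 CPM in WT without the top barcodes. Krt16, a wound keratin, had 290 UMIs in IL31RAKO and 46 in WT Ptprc-zero barcodes (8.25 [6.03, 11.5]), with 191 and 33 of them in 1 barcode, and a ratio of 1.13 [0.893, 1.42] in Ptprc-positive barcodes. The proteases and their inhibitors were past 1.5-fold higher for 11 of 15 in Ptprc-zero barcodes and for 5 of 14 in Ptprc-positive ones. Among them Serpinb5 (maspin) had 205 and 145 UMIs (1.85 [1.49, 2.31]) and a Ptprc-positive ratio of 0.671 [0.528, 0.847].

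A few differentiation genes were higher in IL31RAKO in both Ptprc classes, and these were picked out after their values were seen. Cst6, which encodes cystatin M/E, an inhibitor of cysteine proteases in the epidermis and follicle, had 2157 UMIs in 14 of 35 IL31RAKO and 615 UMIs in 21 of 56 WT Ptprc-zero barcodes (4.59 [4.20, 5.03]), of which 654 and 372 lay in 1 barcode. In Ptprc-positive barcodes it had 1405 and 462 UMIs (5.04 [4.53, 5.61]), of which 1079 and 152 lay in 1 barcode. In the Krt79-only barcodes Cst6 was at 13990 CPM in IL31RAKO and 2660 CPM in WT, and in the Krt15-only ones at 32.8 and 56.2 CPM. Its share of barcodes with a UMI was close in the libraries, at 40.0% and 37.5% of Ptprc-zero barcodes. With the mitochondrial limit at 5% in place of 10% its Ptprc-zero log2 ratio was 1.14 in place of 2.20, and without the suprabasal barcodes it was 1.26.

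Sbsn, a secreted suprabasal protein, had ratios of 2.27 [1.86, 2.77] in Ptprc-zero and 1.92 [1.54, 2.41] in Ptprc-positive barcodes. Of its IL31RAKO UMIs, 102 of 284 and 75 of 173 lay in 1 barcode. Fabp5, the epidermal fatty acid-binding protein, had 2.90 [2.64, 3.17] and 2.60 [2.40, 2.81], with 910 of 1520 and 928 of 1657 IL31RAKO UMIs in 1 barcode. Sprr1a, a cornified envelope precursor, had 6.49 [4.94, 8.62] and 4.67 [3.19, 6.95], with 211 of 317 and 68 of 107 UMIs in 1 barcode. Spink5, an inhibitor of the kallikreins of the cornified layer, had 24 UMIs in 9 IL31RAKO barcodes and 1 UMI in WT in the Ptprc-zero class (31.4 [5.12, 1292]), and 19 and 8 UMIs in the other (3.94 [1.65, 10.4]). Klk7, a kallikrein, had 4.00 [2.35, 7.11] and 3.04 [1.91, 4.91], with 40 of 58 and 47 of 55 IL31RAKO UMIs in 1 barcode. The Klk7 ratios thus rested mostly on 1 IL31RAKO barcode in each class, and the Ptprc-positive ratio was not recomputed without it. At the 5% mitochondrial limit the Ptprc-zero log2 ratios were 0.20 for Sbsn, 0.53 for Sprr1a and -0.11 for Klk7, in place of 1.18, 2.70 and 2.00, and for Fabp5 the ratio was 0.25 without the deepest barcode of each library, in place of 1.53.

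The basal list held as many higher as lower genes in the Ptprc-zero class and more lower than higher ones in the Ptprc-positive class. Of 13 measured in Ptprc-zero barcodes, 2 were past 1.5-fold higher and 2 past 1.5-fold lower (median log2 -0.33). These counts were near the shares of all genes in that class, 15.7% higher and 19.6% lower. Of 15 in Ptprc-positive barcodes 1 was higher and 5 lower (median -0.33), beside 22.6% and 13.9% of all genes. Krt15 had 899 UMIs in IL31RAKO and 1486 in WT Ptprc-zero barcodes (0.792 [0.728, 0.861]) but a ratio of 1.43 [1.28, 1.59] in Ptprc-positive ones. The integrin gene Itga6 had ratios of 0.779 [0.437, 1.35] and 0.829 [0.536, 1.26], and Trp63 of 0.795 [0.544, 1.15] and 1.29 [0.900, 1.83]. Desmosome and junction genes were close to even, with 2 of 19 past 1.5-fold higher and 3 lower. Dsp had 211 UMIs in IL31RAKO and 270 in WT (1.02 [0.850, 1.23]).

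Follicle genes had 4 of 11 past 1.5-fold higher and 2 lower in Ptprc-zero barcodes, beside 15.7% and 19.6% of all genes. Krt79 itself was at 3139 CPM in IL31RAKO and 2916 CPM in WT Ptprc-zero barcodes (1.08 [0.999, 1.16]) and had a ratio of 0.971 [0.905, 1.04] in Ptprc-positive ones. Defb6 was at 1.13 [1.05, 1.21] and 0.873 [0.819, 0.931]. Fst was lower in both classes, with 63 UMIs in IL31RAKO and 204 in WT (0.404 [0.300, 0.539]) and a Ptprc-positive ratio of 0.596 [0.385, 0.902]. Sox9, a follicle transcription factor gene, had ratios of 0.796 [0.566, 1.11] and 0.619 [0.405, 0.927].

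The sebaceous list had opposite directions in the Ptprc classes, and single barcodes held most UMIs of the genes named here. In Ptprc-zero barcodes 0 of 7 genes were past 1.5-fold higher and 6 lower, beside 15.7% and 19.6% of all genes. In Ptprc-positive ones 7 of 9 were higher and 1 lower, beside 22.6% and 13.9% of all genes. Scd1, which makes monounsaturated fatty acids, had 452 UMIs in the IL31RAKO Ptprc-positive barcodes, 437 of them in 1, and 43 in the WT ones. Cidea, a lipid droplet protein gene, had 55 and 3 UMIs there, with 53 in 1 IL31RAKO barcode, and in Ptprc-zero barcodes 4 and 26, with 25 in 1 WT barcode.

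**Figure D5:**
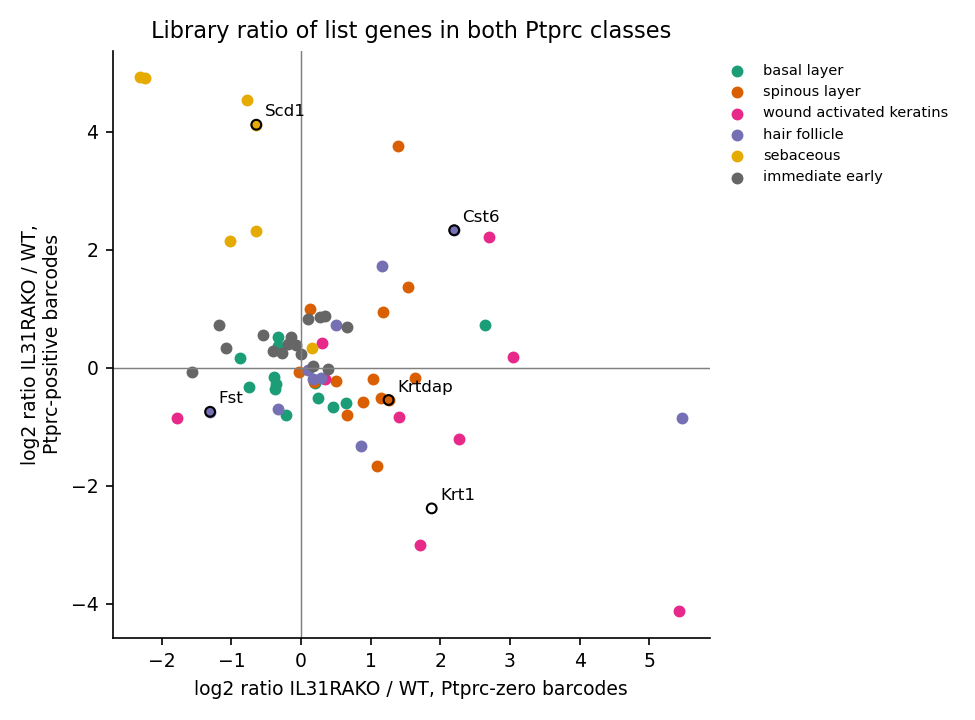
Log2 ratio of IL31RAKO over WT in Ptprc-zero (x axis) and Ptprc-positive (y axis) barcodes, for 69 genes of 6 lists with 10 or more UMIs in each class, coloured by list, with 5 genes circled and named (Krt1, of no list here, is added). Of the 69 genes, 27 had the same direction in both classes and 42 the opposite one. Cst6 lies in the upper right quadrant, Fst in the lower left, Krtdap and Krt1 in the lower right and Scd1 in the upper left.

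The 15 higher and 15 lower genes with the interval bound farthest from 1 in Ptprc-zero barcodes were also set beside the Ptprc-positive class. They met the conditions on single barcodes and free RNA only in the library where they were higher, so their ranking is a description. Because they were chosen for extreme Ptprc-zero ratios, the counts that follow cannot measure a difference between the classes. Of the 15 higher, 4 had the same direction there, and the interval lay on the same side of 1 for 1 and on the other side for 7. Of the 15 lower, 8 had the same direction, with 3 intervals on the same side and 5 on the other. The higher gene that held was Pgk1, a glycolytic enzyme, with 68 UMIs in IL31RAKO and 41 in WT (2.17 [1.45, 3.28]) and a Ptprc-positive ratio of 1.82 [1.31, 2.53]. The rest of the higher group included Sfn (1.79 [1.64, 1.95], part of the rule), Clca3a2 (2.39), Skint1 (3.27), Fgfbp1 (1.99), Gltp (2.00), Fcgbp (1.95), Cbr2 (3.67) and Ly6d (1.58). The lower group included the inhibitor of differentiation gene Id1 (0.350), the metallothionein gene Mt1 (0.573, with 533 and 1219 UMIs), Ccnd1 (0.234), the gap junction gene Gjb2 (0.291), Barx2 (0.483) and Igfbp4 (0.416).

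Immediate early genes, which respond to stimulation and to tissue dissociation, included Atf3 and Fosb among the genes at lower levels in IL31RAKO Ptprc-zero barcodes. Atf3 had 74 UMIs in IL31RAKO and 220 in WT Ptprc-zero barcodes (0.440 [0.334, 0.576]), and 151 and 151 in Ptprc-positive ones (1.66 [1.31, 2.09]). Fosb had 23 and 89 UMIs (0.338 [0.204, 0.540]) and a Ptprc-positive ratio of 0.953 [0.698, 1.29]. Both lay below their free-RNA level in IL31RAKO Ptprc-zero barcodes (Atf3 at 181 CPM against 316 CPM, Fosb at 56.4 against 195 CPM). They met the condition on free RNA through WT, where they were higher, so that their place among the lower genes is a description. Over the list of 16, 1 was past 1.5-fold higher and 3 lower in Ptprc-zero barcodes, beside 15.7% and 19.6% of all genes. In Ptprc-positive ones 5 were higher and 0 lower, beside 22.6% and 13.9% of all genes.

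Proliferation genes also differed by Ptprc class. Of 21, 4 were past 1.5-fold higher and 5 lower in Ptprc-zero barcodes (median log2 -0.05), near the shares of all genes (15.7% and 19.6%). In Ptprc-positive ones 17 were higher and 1 lower (0.89), beside 22.6% and 13.9% of all genes. The list took 0.276% of summed UMIs in IL31RAKO and 0.1665% in WT Ptprc-positive barcodes. Its medians per barcode were closer, at 0.146% and 0.125%, with the highest barcodes at 1.16% and 0.7785%. Mki67 had 12 UMIs in IL31RAKO and 29 in WT (0.542 [0.252, 1.10]) in the Ptprc-zero class, and 37 and 33 (1.86 [1.13, 3.07]) in the other. The part of leukocyte transcripts in these Ptprc-positive values was not tested.

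The alarmin genes S100a8 and S100a9, which neutrophils carry in large amounts and stressed keratinocytes can express, were higher in IL31RAKO Ptprc-zero barcodes. S100a8 had 839 UMIs in IL31RAKO and 239 in WT (4.60 [3.98, 5.33]) and S100a9 377 and 80 (6.17 [4.84, 7.95]), and the Ptprc-positive ratios were 1.16 [1.05, 1.30] and 0.835 [0.718, 0.968]. In the remaining barcodes S100a8 was at 1620 CPM in IL31RAKO and 321 CPM in WT, and in free RNA at 632 and 514 CPM. In the Ptprc-zero keratinocyte barcodes it was at 2056 and 447 CPM. The part of neutrophil RNA in this difference was not tested.

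Interferon-response genes, heat shock genes and the other cytokine receptors had shares past 1.5-fold close to those of all genes in Ptprc-zero barcodes. Those shares were 15.7% higher and 19.6% lower, and 22.6% and 13.9% in the Ptprc-positive class. The interferon list had 2 of 10 higher and 1 lower, the heat shock list 2 and 2 of 10, and the cytokine receptors 2 and 2 of 15. Of the 6 EGF receptor system genes measured, 1 was higher and 3 lower. Egfr, the receptor for EGF-family growth factors, had 8 UMIs in IL31RAKO and 30 in WT (0.349 [0.138, 0.780]), with 0.698 [0.264, 1.67] in the Ptprc-positive class. Glycolysis and hypoxia genes had 5 of 13 higher and 2 lower, with 2 and 0 of 13 in the Ptprc-positive class. The 8 antimicrobial genes measured had 4 higher and 0 lower, with S100a8 and S100a9 among them, and the Ptprc-positive class had 3 higher and 2 lower.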

How the data were processed

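The values analysed are the raw UMI counts per gene and barcode that the authors deposited (27998 genes and 737280 barcodes per library), with no normalisation. The 10x 3′ kit, version 2, was used per the labels' protocols. Cell Ranger 3.1, Seurat 3.2.2 and build mm10 are named in the submitters' processing notes, which give them no role. Barcodes were filtered and chosen as stated above. Fibroblast barcodes had 10 or more UMIs of Col1a1 and Col1a2, endothelial barcodes 3 or more of Pecam1 and Cdh5 with at most 2 collagen UMIs, and both at most 2 keratin UMIs. UMIs were summed per library and Ptprc class and divided by all UMIs of that class (CPM), and ratios carry exact conditional binomial 95% intervals. These were checked only on simulated counts drawn without differences between barcodes. The check therefore says nothing of the intervals where few barcodes hold most UMIs. Doublets were not removed, and Scrublet (scanpy 1.11.5) served as an alternative. No test was made, and no p-value is given. List counts use genes with 10 or more UMIs over both libraries. Other named genes were ranked by the interval bound nearest 1, at 30 or more UMIs over both libraries. At most 25% of UMIs could lie in 1 barcode and the level could not be below free RNA. Both of these conditions were applied only in the library where the gene was higher. Mitochondrial, ribosomal, unnamed, haemoglobin, antigen receptor and sex-linked genes were left out of that ranking. Members, lists and ranges were chosen with earlier results of these data known. Gene coordinates are those of GENCODE M21.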

Additional observations from a re-analysis of the deposited data

Results flagged for a closer look

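The IL31RAKO over WT ratio was compared between the Ptprc-zero and the Ptprc-positive keratinocyte barcodes for 45 named genes. For 17 of them the counting intervals lay on opposite sides of 1. The 45 include the 15 higher and 15 lower genes chosen for ratios far from 1 in the Ptprc-zero class. That choice alone makes a less extreme or opposite ratio in the other class more likely. The count of 17 therefore cannot measure a difference between the classes. Genes outside these 45 did so too, among them Calm4, Defb6 and S100a9, and were not counted. The difference between the classes was not tested. It is given as the log2 ratio in Ptprc-zero barcodes minus that in Ptprc-positive ones. Differentiation and epithelial genes had higher ratios in the Ptprc-zero class: Krt1 by 4.26, Krt10 by 2.54, Fcgbp by 2.24, Clca3a2 by 2.06, Krtdap by 1.80, Ly6d by 1.46, Serpinb5 by 1.46, Dmkn by 1.22, Sfn by 1.10 and Krt14 by 0.78. Krt1, Krt10, Krt14 and Sfn are part of the rule that chose the barcodes. Lower ratios in the Ptprc-zero class were found for Scd1 (-4.76), Phf3 (-2.91), Id1 (-2.51), Atf3 (-1.91), Igfbp4 (-1.85), Mt1 (-1.70) and Krt15 (-0.85). For Scd1, 437 of the 452 UMIs in the IL31RAKO Ptprc-positive class came from 1 barcode. The Ptprc-positive IL31RAKO barcodes also had a higher share of leukocyte transcripts (median 0.477% of UMIs, against 0.262% in WT), and the part of these transcripts in the differences was not tested.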

How the results depend on the processing

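No paired analysis was possible because each genotype had 1 library and no test was made. The share ratio of keratinocyte barcodes stayed between 0.413 and 0.513 under 8 changes of the cell filters (0.496 as reported), and that of the Ptprc-zero class between 0.474 and 0.530. The Ptprc-positive share depended on depth, at 13.1% in IL31RAKO and 6.12% in WT after thinning to 1000 UMIs, and at 1.61% and 5.88% after thinning to 500. Genes past 1.5-fold higher numbered 1124 in Ptprc-zero barcodes, 1751 in Ptprc-positive ones and 372 at 30 or more UMIs. Those lower numbered 1400, 388 at 30 or more UMIs and 2228 at 1 or more. List medians changed most with the Ptprc class. In Ptprc-positive barcodes the median log2 ratio was -0.20 for the spinous, -0.84 for the activated, -0.18 for the follicle, 4.12 for the sebaceous, -0.0491 for the protease and 0.39 for the immediate early list. Over all members it was 0.28 for the spinous, 1.60 for the sebaceous and 0.13 for the immediate early list. The basal median was 0.0124 at under 5% mitochondrial UMIs, the follicle median -0.0631 at 20 or more keratin UMIs, and the immediate early median 0.0042 as a mean over barcodes. Of 45 named genes, 24 reversed in Ptprc-positive barcodes, at log2 ratios of 0.98 for Phf3, -0.58 for Serpinb5, 0.73 for Atf3, 1.00 for Id1, -0.80 for Clca3a2, -0.0538 for Skint1, -0.26 for Sfn, -0.0262 for Fgfbp1, -1.28 for Fcgbp, -0.18 for Dmkn, -0.55 for Krtdap, -0.26 for Urah, 0.89 for Mt1, -0.14 for Fam25c, 0.0114 for Barx2, 0.59 for Igfbp4, -0.87 for Krt10, 0.52 for Krt15, -0.26 for Krt14, 0.27 for Socs3, -0.80 for Ly6d, -0.0339 for Krt5, -2.39 for Krt1 and 4.12 for Scd1. Over all members 6 reversed, Fcgbp at -0.11, Mt1 at 0.10, Krt10 at -0.0919, Krt15 at 0.0382, Ly6d at -0.0846 and Scd1 at 2.44. At under 5% mitochondrial UMIs Klk7 was at -0.11 and Krt17 at -0.12, without any collagen UMI Krt10 was at -0.0441 and Krt1 at -2.86, and as a mean over barcodes Scd1 was at 0.17. The 45 genes include the 15 higher and 15 lower ones chosen for ratios far from 1 in Ptprc-zero barcodes. The count of reversals in Ptprc-positive barcodes therefore cannot measure a difference between the classes. The causes were not tested. Under 12 other settings, among them free RNA subtracted, other scalings and top Scrublet scores removed, 0 of these genes reversed. A reversal was counted only where the interval as reported left out 1. Of the 45 ratios, 10 moved out of that interval with top Scrublet scores removed and 13 with only barcodes under 50% suprabasal keratin. A further 9 did so without the deepest barcode, 7 without the top barcode of each gene and 5 at 20 or more keratin UMIs. The restriction to barcodes under 50% suprabasal keratin, the omission of the deepest barcode, and for lists the mean over barcodes and the omission of the top barcode of each gene or list were chosen after seeing the data. With 35 and 56 Ptprc-zero barcodes, genes under about 10 UMIs allow no direction.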
